A study of Rattus norvegicus with 18 samples.

Results

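Dorsal root ganglia hold the cell bodies of sensory neurons. Untreated control ganglia of rats (Ctrl, 3 libraries) were compared here with ganglia of control rats that received the solvent alone (Ctrl_solvent, 3 libraries), 6 of the 18 bulk RNA-seq libraries of a study of the Shentong Zhuyu decoction in neuropathic pain. Neither group carried the pain model or received the herb, so the comparison asks what giving the vehicle, with its handling, went along with in control animals. The sources used here give neither the solvent's identity, route, dose and duration, nor the rats' strain, sex and age, nor the level of the ganglia. The other groups, also of 3 libraries each, were Sham_solvent, Sham_herb, NPP_solvent and NPP_herb, where Sham is the sham control, NPP the neuropathic pain model and herb the decoction. Genes entered the comparison if they lie on an autosome and passed a filter on low counts, which left 16438 of the 25678 genes in the count table. Nothing in the labels states that replicate libraries stem from different rats, so the spread behind each p-value may be technical.

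The 6 libraries held 18170925 to 36885633 counted reads. Levels below are in CPM, counts-per-million after TMM scaling, which corrects for RNA composition. Each gene's values are given for Ctrl_solvent 1, 2 and 3 and then for Ctrl 1, 2 and 3. Ctrl_solvent 1 and 3 resembled each other more than either resembled Ctrl_solvent 2, with a correlation of log2 CPM across genes of 0.981 against 0.961 to 0.963. Ctrl_solvent 2 correlated with the 3 Ctrl libraries at 0.977 to 0.984, about as they did among themselves (0.974 to 0.977), while Ctrl_solvent 1 and 3 correlated with them at 0.951 to 0.961. Reads of the Y-linked gene Eif2s3y, a marker of male tissue, numbered 3006, 1 and 0 in Ctrl 1, 2 and 3. All 3 Ctrl_solvent libraries carried them (2373, 4411 and 2717 reads), and Ctrl 2 and 3 were the 2 libraries of 18 without them. The presence of Y-linked RNA is therefore partly confounded with treatment, and results are also given without Ctrl 2 and 3, which leaves 1 Ctrl library. Its spread is then assumed to be that of the other groups. Defining RNAs of sensory ganglia were present in every library, and the pan-neuronal list summed to 16901, 18525 and 15625 CPM in Ctrl_solvent and 18508, 19493 and 19488 CPM in Ctrl.

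As background, resident macrophages, satellite glia and Schwann cells surround the neurons of a ganglion, and blood-borne lymphocytes are scarce in it at rest. Type I interferons signal through a surface receptor to a set of antiviral genes whose promoters carry an interferon-stimulated response element. Interferon gamma, made by T and natural killer cells, signals through its own receptor to promoters with gamma-activated sites, and induces IRF1, guanylate-binding proteins, the immunoproteasome, peptide transporters and MHC molecules that show peptides to T cells.

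Promoter sequences of interferon-responsive genes were read from RefSeq (GRCr8 assembly), because the lists named for these responses had some of the highest medians. The files' own coordinates are on mRatBN7.2, so positions below apply to GRCr8 only. Each sequence holds the 120 bases before the gene's start, 5′ to 3′ on the gene's strand, with 2 motifs in capitals. The first is GAAA, any 2 bases and GAAA again (TTTC, any 2 bases and TTTC on the other strand), the core of the response element, searched on both strands. The other is TTCNNNGAA, which reads the same on both strands, the core of the gamma-activated site. A sequence may hold either motif or both. The first 4 are from the interferon-stimulated list and the rest from the list of interferon-gamma-linked GTPases and antigen processing genes. They were picked by smallest p among members that hold a motif in this window, the first motif for the former list and either for the latter. Every printed sequence thus has a motif by selection. They are Ifih1 (chr3:67683969-67684088, minus strand), Parp14 (chr11:78408014-78408133, plus), Ifit3 (chr1:241527206-241527325, plus), Xaf1 (chr10:57415815-57415934, plus), Ifi47 (chr10:33798624-33798743, plus), Irgm2 (chr10:42889850-42889969, plus), Gbp2 (chr2:234005607-234005726, plus) and Igtp (chr10:42874927-42875046, plus).
Ifih1: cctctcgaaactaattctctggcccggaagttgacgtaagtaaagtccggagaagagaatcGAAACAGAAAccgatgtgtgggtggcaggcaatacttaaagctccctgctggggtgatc
Parp14: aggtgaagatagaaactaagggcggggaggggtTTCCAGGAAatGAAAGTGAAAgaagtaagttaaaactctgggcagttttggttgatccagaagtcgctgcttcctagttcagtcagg
Ifit3: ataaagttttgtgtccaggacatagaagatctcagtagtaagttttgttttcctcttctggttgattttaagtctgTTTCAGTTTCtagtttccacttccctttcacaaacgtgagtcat
Xaf1: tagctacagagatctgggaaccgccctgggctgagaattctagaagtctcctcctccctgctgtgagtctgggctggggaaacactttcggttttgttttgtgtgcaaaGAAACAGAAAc
Ifi47: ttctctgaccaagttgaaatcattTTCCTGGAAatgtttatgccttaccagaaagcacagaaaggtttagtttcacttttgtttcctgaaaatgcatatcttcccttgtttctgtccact
Irgm2: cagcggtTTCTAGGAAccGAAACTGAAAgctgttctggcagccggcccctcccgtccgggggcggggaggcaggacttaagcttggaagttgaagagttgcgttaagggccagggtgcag
Gbp2: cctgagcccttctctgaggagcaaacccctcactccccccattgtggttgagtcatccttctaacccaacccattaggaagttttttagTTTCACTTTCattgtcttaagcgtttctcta
Igtp: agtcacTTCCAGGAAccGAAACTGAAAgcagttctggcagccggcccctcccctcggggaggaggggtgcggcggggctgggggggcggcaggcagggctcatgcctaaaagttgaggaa
Within the 250 bases before the start, the GAAA motif stood in 3.41% of all 33469 promoters in the table and in 2.66% of the promoters of tested genes with a single listed start. It stood in 14 of 23 such genes of the interferon-stimulated list (60.9%) and in 14 of 29 of the interferon-gamma-linked list (48.3%). TTCNNNGAA stood in 7.67% of all promoters and 6.07% of those of tested genes, in 6 of 23 genes of the former list (26.1%) and in 9 of 29 of the latter (31.0%). The GAAA motif was found in 1 of 9 MHC class II genes, 0 of 13 complement genes, 0 of 11 T and B cell genes, 3 of 19 macrophage genes (15.8%), 3 of 21 nociceptor genes (14.3%) and 2 of 12 red blood cell genes (16.7%). Within the 120 bases alone, the GAAA motif stood in 1.32% of promoters of tested genes. It stood there in 11 of 23 interferon-stimulated genes (47.8%) and 11 of 29 interferon-gamma-linked genes (37.9%). For TTCNNNGAA these were 2.39%, 2 of 23 (8.7%) and 4 of 29 (13.8%). All of these are matches of letters in a window and do not show a bound site.

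No autosomal gene passed an adjusted p of 0.05 in edgeR's quasi-likelihood test with Benjamini-Hochberg adjustment (0 of 16438, 0.0%), and the smallest adjusted p was 0.05001. At an unadjusted p under 0.05, 1363 genes were higher in Ctrl_solvent (8.29%) and 781 were lower (4.75%). With library totals and no scaling factor these were 1633 and 531. All 3 Ctrl_solvent libraries lay above all 3 Ctrl libraries for 1372 genes (8.35%) and below them for 1355 (8.24%), or 1817 and 959 with no scaling factor. DESeq2 with Benjamini-Hochberg adjustment called 396 genes higher (2.41%) and 62 lower (0.377%). Without Ctrl_solvent 2, edgeR called 561 higher (3.41%) and 135 lower (0.821%), and 379 of these 696 were among the 458 called by DESeq2. That fit leaves out the Ctrl_solvent library most like Ctrl, so its calls here and below are a description. Without Ctrl_solvent 1, or without Ctrl_solvent 3, edgeR called 0 genes. Without Ctrl 1 it called 10 higher (0.0608%) and 5 lower (0.0304%). Without Ctrl 2 and 3 edgeR called 0 genes, with 627 higher (3.81%) and 258 lower (1.57%) at an unadjusted p under 0.05. The spread between libraries was wider in Ctrl_solvent, with a biological coefficient of variation of 0.258 against 0.193 in Ctrl.

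The highest list medians were those of immune lists. In 8 lists (interferon-stimulated, interferon-gamma-linked, MHC class II, T and B cell, cytotoxic lymphocyte, macrophage, complement and inflammatory mediators), 150 of 156 tested genes had a higher estimate in Ctrl_solvent, against 50.8% of all genes. Of the 156, 135 (86.5%) were higher in Ctrl_solvent at an unadjusted p under 0.05 (8.29% of all genes). At that p 0 were lower (4.75% of all genes). For 68 (43.6%) every Ctrl_solvent library lay above every Ctrl library (8.35% of all genes). The interferon-gamma-linked and cytotoxic lists in this tally were put together after these values had been seen, and some lymphocyte genes passed the low-count filter only through the libraries where they are high, so the tally is a description and no independent evidence of its direction. The median log2 fold change of the 156 genes was 2.28 (2.27 without Ctrl 2 and 3), where the median of all tested genes was 0.004. DESeq2 called 107 of the 156 higher (2.41% of all genes). Without Ctrl_solvent 2, the library of its group most like Ctrl, edgeR called 108 higher (3.41% of all genes). That fit called 9 of 11 MHC class II, 9 of 14 T and B cell and 11 of 12 cytotoxic lymphocyte genes. It also called 16 of 25 macrophage, 14 of 22 complement and 11 of 18 inflammatory mediator genes. In these bulk libraries more cells of a type and more RNA per cell cannot be told apart.

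**Figure D1:**
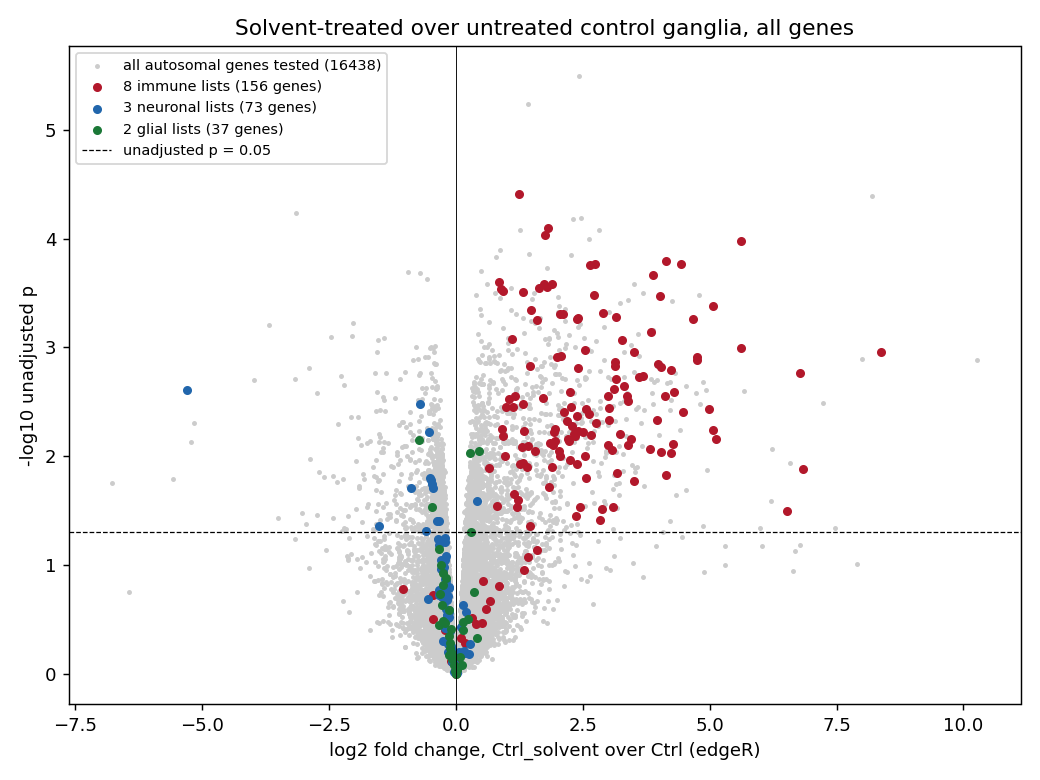
Each point is 1 autosomal gene, with its log2 fold change of Ctrl_solvent over Ctrl on the x axis and -log10 of its unadjusted edgeR p on the y axis. The genes of 8 immune lists (red) lie mostly to the right, 150 of 156 above 0, while most neuronal (blue) and glial (green) genes lie close to 0, with Nppb at -5.30 as the neuronal gene furthest to the left.

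Interferon-stimulated genes were higher in Ctrl_solvent as a list, and the high values were those of Ctrl_solvent 1 and 3. All 33 tested members had a higher estimate, 31 with an unadjusted p under 0.05, and the median log2 fold change was 2.76 (2.62 without Ctrl 2 and 3, with 2 of 33 then under 0.05). The summed level of the list was 3934, 621 and 3100 CPM in Ctrl_solvent and 704, 710 and 606 CPM in Ctrl, so that Ctrl_solvent 2 lay inside the Ctrl range. DESeq2 called 22 members (2.41% of all genes) and edgeR without Ctrl_solvent 2 called 17 (3.41% of all genes). Of all genes, 8.29% were higher at an unadjusted p under 0.05. Isg15, a ubiquitin-like protein attached to proteins during viral infection, had 203, 3.95 and 119 CPM in Ctrl_solvent and 3.43, 3.78 and 2.12 CPM in Ctrl. Its log2 fold change was 5.13 ± 1.59 (SE) at an edgeR adjusted p of 0.198 (0.0471 without Ctrl_solvent 2 and 0.00304 in DESeq2). Ctrl_solvent 2 differed from the highest Ctrl library by far less than Ctrl_solvent 1 and 3 did.

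Among sensors, regulators and effectors of the pathway, Ctrl_solvent 1 and 3 were again the highest of the 6 libraries. Ifih1, which encodes the cytosolic double-stranded RNA sensor MDA5, had 19.5, 5.06 and 21.2 CPM in Ctrl_solvent against 4.16, 2.72 and 3.43 CPM in Ctrl. The groups did not overlap, and Ctrl_solvent 2 was the nearest to Ctrl. Irf7, the transcription factor that amplifies interferon production, had 252, 9.04 and 182 CPM against 8.18, 8.10 and 7.15 CPM. Rsad2, which encodes the antiviral enzyme viperin, had 121, 5.98 and 79.7 CPM against 2.76, 4.75 and 3.004 CPM. Mx1, a dynamin-like antiviral GTPase, had 149, 8.28 and 133 CPM against 11.8, 8.97 and 5.81 CPM, and here Ctrl_solvent 2 lay within the Ctrl range. The log2 fold changes were 2.14 ± 0.62 for Ifih1, 4.24 ± 1.37 for Irf7 and 4.30 ± 1.14 for Rsad2, with edgeR adjusted p between 0.146 and 0.214. Ctrl_solvent 2 lay within the Ctrl range for 12 of the 33 members, above it for 16 and below it for 5. The 2 members without an unadjusted p under 0.05 were Ifi27 and Trim25, with log2 fold changes of 0.32 and 1.34. Reads of the near-identical members of the Oas, Ifit and Mx families could be split between copies, so single members of these families are uncertain.

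Genes linked to interferon gamma, a list put together after values of these libraries had been seen, were also higher in Ctrl_solvent. All 32 tested members had an unadjusted p under 0.05 and a higher estimate in Ctrl_solvent, with a median log2 fold change of 3.03 (3.09 without Ctrl 2 and 3, with 18 of 32 then under 0.05). Their summed level was 5908, 1453 and 5529 CPM in Ctrl_solvent and 1201, 1142 and 1022 CPM in Ctrl. Because the list was picked with these values in view, its count is a description. DESeq2 called 30 members (2.41% of all genes) and edgeR without Ctrl_solvent 2 called 31 (3.41% of all genes). Of all genes, 8.29% were higher at an unadjusted p under 0.05.

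Among the transcription factors, Irf1 had 106, 9.88 and 105 CPM in Ctrl_solvent and 7.11, 8.73 and 8.88 CPM in Ctrl, a log2 fold change of 3.15 ± 0.69 at an edgeR adjusted p of 0.127. Irf8, a factor of myeloid cells and B cells, had 25.5, 6.17 and 21.2 CPM against 1.66, 3.10 and 3.13 CPM, a log2 fold change of 2.74 ± 0.55. The groups did not overlap for either factor. Nlrc5, the transactivator of MHC class I genes, had 30.6, 2.68 and 30.4 CPM against 1.84, 3.06 and 2.38 CPM, and Ctrl_solvent 2 fell inside the Ctrl range. Of the effectors, Gbp2, a guanylate-binding protein that attacks membranes around pathogens, had 376, 21.8 and 410 CPM against 19.5, 25.1 and 18.2 CPM. Cxcl9, a chemokine that draws CXCR3-bearing T cells, had 51.7, 2.33 and 80.2 CPM against 1.11, 0.582 and 0.980 CPM. Cxcl10, a second ligand of CXCR3, had 168, 4.03 and 110 CPM against 2.73, 3.98 and 3.72 CPM. For both chemokines the lowest Ctrl_solvent library was Ctrl_solvent 2, above the highest Ctrl library. The log2 fold changes were 5.62 ± 1.32 for Cxcl9 and 4.75 ± 1.15 for Cxcl10.

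Ctrl_solvent 1 and 3 were also the highest for genes of antigen presentation and for inhibitors of T and natural killer cell responses. B2m, the light chain of MHC class I, had 2940, 1030 and 2764 CPM in Ctrl_solvent and 804, 739 and 675 CPM in Ctrl. Its log2 fold change was 1.60 ± 0.36 at an edgeR adjusted p of 0.128, and the groups did not overlap. Psmb8, a catalytic subunit of the immunoproteasome, had 81.9, 8.14 and 67.2 CPM against 5.97, 6.26 and 5.71 CPM. Tap1, a subunit of the peptide transporter, had 152, 14.6 and 141 CPM against 14.8, 12.9 and 10.9 CPM. Cd274, which encodes the T-cell-inhibiting ligand PD-L1, had 57.9, 24.7 and 58.8 CPM against 26.005, 17.1 and 22.7 CPM, so Ctrl_solvent 2 lay within the Ctrl range of Tap1 and of Cd274. Il18bp, the soluble inhibitor of interleukin 18, had 28.1, 4.52 and 29.2 CPM against 3.43, 3.59 and 2.81 CPM.

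MHC class II genes, which present peptides to CD4+ T cells, were higher as a list. All 11 tested members were higher at an unadjusted p under 0.05 (8.29% of all genes). For 8 of 11 every Ctrl_solvent library lay above every Ctrl library (8.35% of all genes). The median log2 fold change was 2.05 (2.11 without Ctrl 2 and 3). The summed level was 1205, 315 and 1229 CPM in Ctrl_solvent and 207, 269 and 147 CPM in Ctrl, all 3 above all 3. Ciita, the transactivator of these genes, had 5.68, 1.60 and 9.06 CPM against 1.10, 1.16 and 1.078 CPM. Cd74, the invariant chain that guides class II molecules through the cell, had 483, 151 and 514 CPM against 96.2, 130 and 69.4 CPM. Ctrl_solvent 2 was above the Ctrl range for both but nearer to it than to the other Ctrl_solvent libraries. RT1-Da, a class II alpha chain, had 225, 47.5 and 226 CPM against 27.0, 37.7 and 19.9 CPM. RT1-DMb, which helps exchange peptides, had 46.3, 11.1 and 45.4 CPM against 7.92, 9.94 and 6.92 CPM, a log2 fold change of 2.05 ± 0.46 at an edgeR adjusted p of 0.127. RT1 genes are near-identical copies, so reads could be split among them. DESeq2 called 9 of the 11 higher (2.41% of all genes).

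T-cell genes such as Cd8a and Cd3e had few or no reads in Ctrl and were higher in Ctrl_solvent 1 and 3. Of 22 genes in the T and B cell list 14 passed the low-count filter, and a gene that passed only through the libraries where it is high had to differ, so its counts are a description. Of the 14, 13 had a higher estimate, with a median log2 fold change of 2.61 (1.34 with a filter at 1 CPM). The summed level of the list differed less, at 108, 67.1 and 123.01 CPM in Ctrl_solvent and 42.2, 69.5 and 73.3 CPM in Ctrl, with Ctrl_solvent 2 inside the Ctrl range. Cd8a, the co-receptor of cytotoxic T cells, had 137, 25 and 178 reads in Ctrl_solvent and 2, 3 and 3 reads in Ctrl, or 7.41, 0.677 and 7.79 CPM against 0.0737, 0.146 and 0.0980 CPM. The groups did not overlap, and the log2 fold change was 5.61 ± 1.10. In the other 12 libraries of the series Cd8a reached at most 1.10 CPM. Cd3e, a chain of the T-cell receptor complex, had 77, 12 and 87 reads against 0, 3 and 3 reads. Cd4, which macrophages of the rat also carry, had 31.3, 25.2 and 32.6 CPM against 15.4, 21.4 and 13.1 CPM, a log2 fold change of 0.84 ± 0.18.

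The cytotoxic lymphocyte list, put together after values had been seen, had 12 of 18 members past the filter. All 12 were higher at an unadjusted p under 0.05 (8.29% of all genes). Its summed level was 71.2, 8.25 and 88.9 CPM in Ctrl_solvent and 4.83, 8.003 and 3.46 CPM in Ctrl. Gzmb, the serine protease granzyme B, had 119, 1 and 243 reads against 0, 0 and 1 reads. Gzma, granzyme A, had 40, 0 and 119 reads against 0, 1 and 0 reads. For both granzymes Ctrl_solvent 2 was no higher than the highest Ctrl library. Klrk1, the activating receptor NKG2D, had 15.0, 1.11 and 19.9 CPM against 0.221, 0.825 and 0.392 CPM. Ccl5, a chemokine of activated T cells, had 11.04, 1.30 and 15.4 CPM against 1.66, 1.31 and 0.718 CPM. Gzmb, Gzma and Ccl5 are also members of the T and B cell list, so the lists overlap. Ifng, which encodes interferon gamma itself, had 13, 0 and 12 reads in Ctrl_solvent, 0 reads in each Ctrl library and 0 reads in each of the other 12 libraries. Of the B-cell genes, Cd79b, Ms4a1 and Pax5 had too few reads to test, and Cd79a, a chain of the B-cell receptor, had 1.68, 2.19 and 0.919 CPM against 1.62, 2.33 and 0.914 CPM, with a log2 fold change of 0.00.

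**Figure D2:**
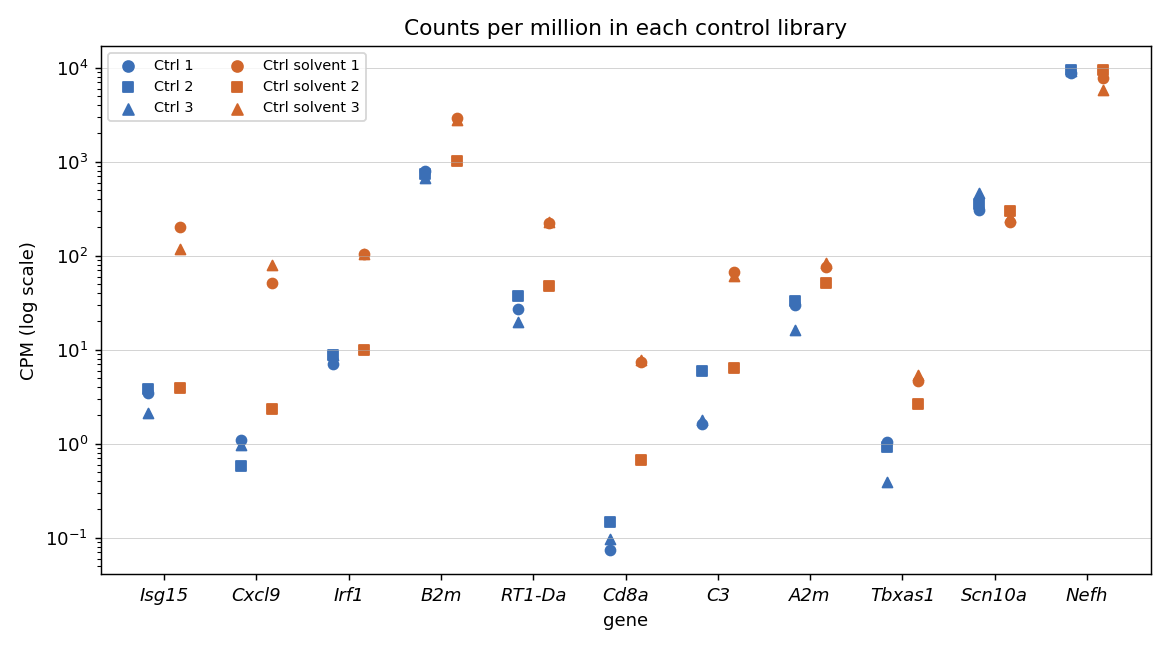
CPM on a log axis for 11 genes, 1 point for each control library, with blue for Ctrl, orange for Ctrl_solvent and the marker shape giving the replicate. For Isg15, Irf1 and C3, Ctrl_solvent 1 and 3 lie far above Ctrl while Ctrl_solvent 2 lies close to it, for Cd8a and Cxcl9 Ctrl_solvent 2 lies between, and for A2m and Tbxas1 all 3 Ctrl_solvent libraries lie above Ctrl.

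Macrophage genes were higher by a smaller margin. Of 25 tested members 23 had a higher estimate, 22 of them with an unadjusted p under 0.05 (8.29% of all genes). The median log2 fold change was 1.83 (1.86 without Ctrl 2 and 3). The summed level was 1381, 429 and 1365 CPM in Ctrl_solvent and 293, 411 and 219 CPM in Ctrl. This list includes Cd74, described with MHC class II, and C1qa, described with complement, so the lists are not separate results. Cd68, a lysosomal protein of macrophages, had 26.3, 6.87 and 28.0 CPM against 3.43, 5.29 and 3.04 CPM, a log2 fold change of 2.38 ± 0.54. Cd14, a co-receptor for bacterial lipopolysaccharide, had 11.5, 3.17 and 14.0 CPM against 2.50, 3.10 and 2.06 CPM. Csf1r, the receptor that maintains macrophages, had 36.2, 32.9 and 40.3 CPM against 16.7, 25.6 and 17.0 CPM. Mrc1, the mannose receptor, had 17.0, 17.5 and 16.8 CPM against 11.3, 8.54 and 7.31 CPM. For Csf1r and Mrc1, unlike the interferon-stimulated genes, Ctrl_solvent 2 was close to the other Ctrl_solvent libraries, at log2 fold changes of 0.89 ± 0.20 and 0.92 ± 0.29. Trem2 and Lyve1 had lower estimates, at log2 fold changes of -1.04 and -0.45.

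Complement genes had a median log2 fold change of 1.78 (1.78 without Ctrl 2 and 3). Of 22 tested members 20 were higher, 15 of them at an unadjusted p under 0.05 (8.29% of all genes). C1qa, a chain of the initiating C1q complex, had 116, 24.3 and 97.9 CPM in Ctrl_solvent and 15.8, 26.1 and 10.5 CPM in Ctrl, so Ctrl_solvent 2 lay within the Ctrl range. C1r, the first protease of the classical pathway, had 217, 63.2 and 231 CPM against 47.7, 67.0 and 39.1 CPM, again with Ctrl_solvent 2 within the range. C3, the central component, had 66.5, 6.33 and 60.2 CPM against 1.62, 6.01 and 1.80 CPM, a log2 fold change of 3.85 ± 0.87. The inhibitors differed among themselves. Serping1, the C1 inhibitor, had 270, 68.6 and 298 CPM against 58.1, 58.7 and 29.7 CPM, and its groups did not overlap. Cd55 and Cd59, which protect host membranes, had log2 fold changes of -0.21 and 0.11.

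Among inflammatory mediators 17 of 18 tested members had a higher estimate, with a median log2 fold change of 1.68. At an unadjusted p under 0.05, 12 were higher (8.29% of all genes). The median was 2.40 without Ctrl 2 and 3. Il18, a cytokine released by inflammasomes, had 17.2, 1.92 and 14.9 CPM in Ctrl_solvent and 1.88, 2.23 and 1.04 CPM in Ctrl, with Ctrl_solvent 2 inside the Ctrl range. Il33, an alarmin held in nuclei, had 101, 78.3 and 91.7 CPM against 64.3, 44.4 and 34.0 CPM, a log2 fold change of 0.92 ± 0.20. Its groups did not overlap. Cxcl13, a chemokine for B cells, had 107, 5.47 and 157 CPM against 1.92, 6.11 and 4.21 CPM. Ccl2, which draws monocytes, had 66.2, 21.4 and 60.8 CPM against 10.6, 39.2 and 43.3 CPM, and Ctrl_solvent 2 stood below 2 of the 3 Ctrl libraries. Cell-death genes, a list put together after values had been seen, had all 15 members higher, with a median of 1.63. Of these, 13 had an unadjusted p under 0.05 (8.29% of all genes were higher at that p). Zbp1, a sensor of nucleic acids that starts necroptosis, had 19.7, 0.379 and 15.8 CPM against 0.147, 0.728 and 0.424 CPM. Casp1, the inflammasome protease, had 13.7, 3.57 and 15.0 CPM against 2.32, 3.88 and 1.078 CPM. For both genes Ctrl_solvent 2 lay within the Ctrl range. Gsdmd, whose cleaved form makes membrane pores, had a log2 fold change of 0.56 at an unadjusted edgeR p of 0.052.

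**Figure D3:**
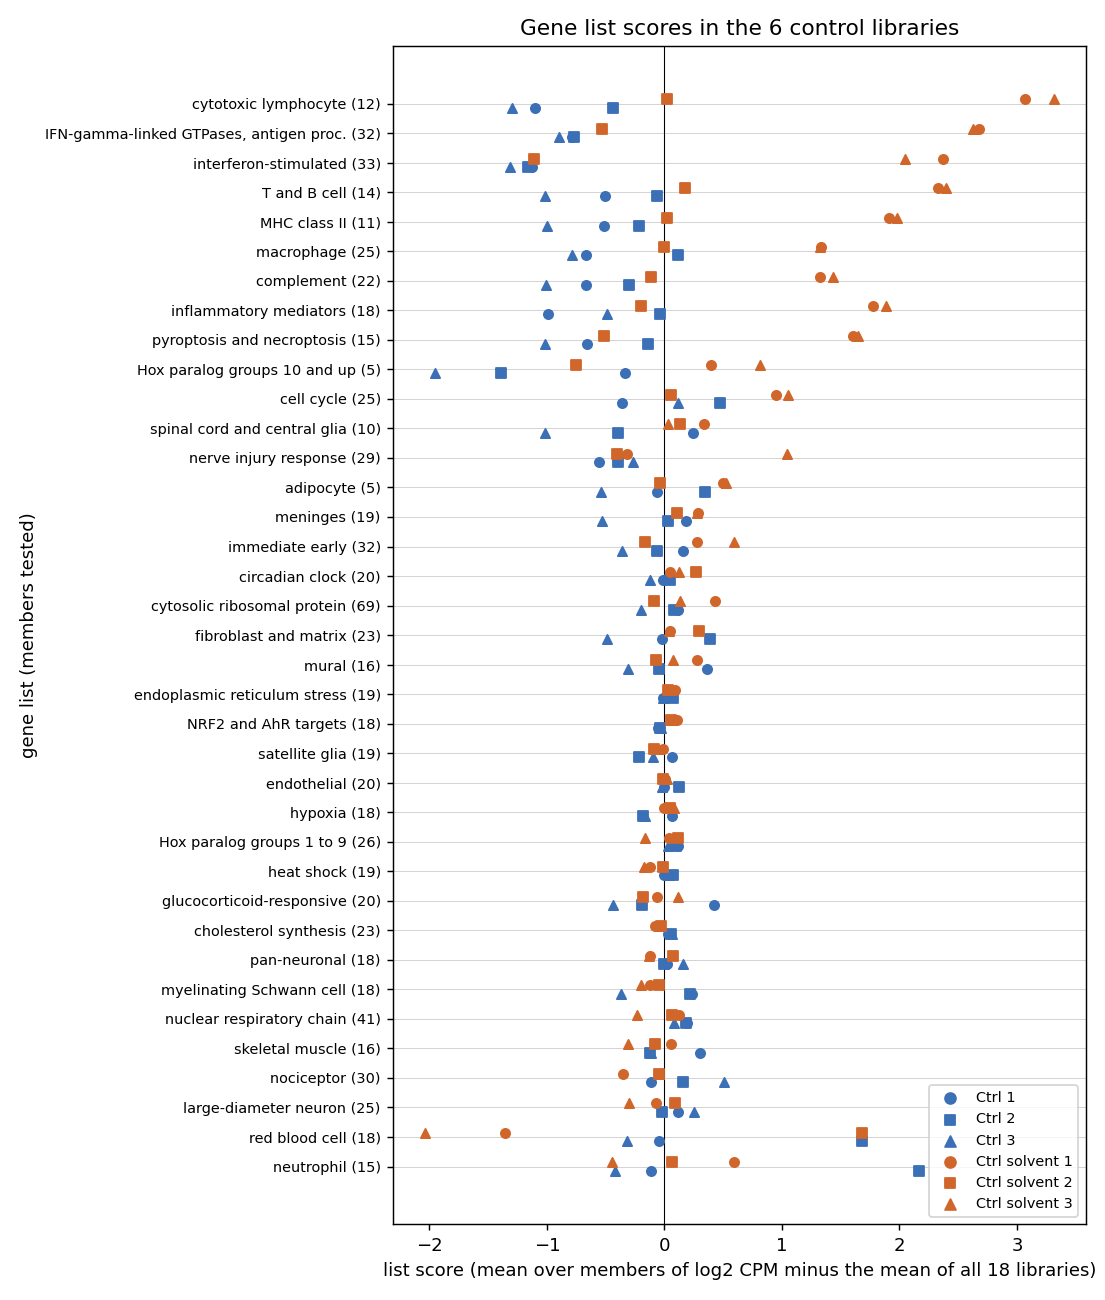
List scores (log2 CPM centred on the mean of the 18 libraries and averaged over the members) for every list, 1 point for each control library, ordered by the list's median fold change. In the interferon-stimulated list Ctrl_solvent 1 and 3 stand at 2.37 and 2.05 and Ctrl_solvent 2 at -1.11, beside Ctrl at -1.32 to -1.13.

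The 12 genes with the smallest p among those higher in Ctrl_solvent, non-overlapping and at a mean of at least 1 CPM, were Tbxas1, A2m, C7, Ripk3, Tent5a, C6, Nampt, Fcgr2b, Vcam1, Clec4a, Cd8a and Entpd1. In all 12 Ctrl_solvent 2 was between Ctrl and the other Ctrl_solvent libraries. Tbxas1 (chromosome 4), the thromboxane synthase, had 4.65, 2.62 and 5.38 CPM in Ctrl_solvent and 1.03, 0.922 and 0.392 CPM in Ctrl, a log2 fold change of 2.43 ± 0.36 (2.02 without Ctrl 2 and 3). A2m (chromosome 4), a broad protease inhibitor of blood plasma, had 75.3, 51.4 and 82.8 CPM against 29.7, 33.1 and 16.03 CPM, a log2 fold change of 1.41 ± 0.22 (1.23 without them). Both had an edgeR adjusted p just above 0.05 and a DESeq2 adjusted p of 5.18e-07. C7 (chromosome 2) and C6 (chromosome 2), parts of the membrane attack complex, had 59.0, 39.4 and 55.3 CPM against 23.8, 21.3 and 20.02 CPM, and 5.03, 2.22 and 5.25 CPM against 0.847, 1.504 and 1.18 CPM.

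The rest of the 12 had an edgeR adjusted p of 0.122. Ripk3 (chromosome 15), the kinase of necroptosis, had 8.17, 1.95 and 8.71 CPM in Ctrl_solvent and 1.18, 1.46 and 0.784 CPM in Ctrl. Nampt (chromosome 6), the rate-limiting enzyme of NAD salvage, had 94.2, 41.9 and 95.3 CPM against 35.5, 32.1 and 29.2 CPM. Vcam1 (chromosome 2), an adhesion molecule for leukocytes, had 25.6, 12.3 and 36.3 CPM against 5.27, 8.15 and 8.55 CPM. Ctrl_solvent 2 was the lowest of its group for all 3 genes. Fcgr2b (chromosome 13), the inhibitory receptor for IgG, had 11.8, 2.46 and 14.0 CPM against 1.10, 1.84 and 1.04 CPM. Entpd1 (chromosome 1), which encodes the ATP-degrading enzyme CD39, had 21.1, 14.7 and 24.0 CPM against 12.5, 9.36 and 10.8 CPM. In the order given, the 5 log2 fold changes were 2.46 ± 0.47, 1.26 ± 0.24, 1.75 ± 0.34, 2.83 ± 0.54 and 0.87 ± 0.18. Tent5a (chromosome 8), a poly(A) polymerase, and Clec4a (chromosome 4), a C-type lectin of myeloid cells, showed log2 fold changes of 2.31 ± 0.44 and 2.63 ± 0.53.

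The 12 genes lower in Ctrl_solvent by the same rule were Dpf1, Dcakd, Slc27a4, Selenov, S100a3, Evc2, Coq5, Nkiras2, Dhrs1, Srrm3, Pias4 and Ncln. Their log2 fold changes ran from -2.03 to -0.42, smaller in size than most of the higher genes, and their edgeR adjusted p from 0.122 to 0.135. Dpf1, a subunit of the BAF chromatin remodelling complex of neurons, had 3.90, 4.63 and 3.11 CPM in Ctrl_solvent and 6.37, 8.39 and 7.71 CPM in Ctrl, a log2 fold change of -0.94 ± 0.20. Slc27a4, a fatty acid transport protein, had 62.3, 73.0 and 57.7 CPM against 85.4, 107 and 95.4 CPM, a log2 fold change of -0.58 ± 0.13. Evc2, a protein of the primary cilium in hedgehog signalling, had 3.03, 2.68 and 3.32 CPM against 6.59, 9.31 and 10.2 CPM, a log2 fold change of -1.53 ± 0.38. In these 3 genes Ctrl 1 was the lowest of the Ctrl libraries, and Ctrl_solvent 2 was the highest of its group for Dpf1 and Slc27a4 and the lowest for Evc2. Coq5, a methyltransferase of coenzyme Q synthesis, had 33.5, 35.7 and 32.2 CPM against 43.2, 45.8 and 46.5 CPM. Srrm3, a splicing factor of neuronal microexons, had 23.4, 25.2 and 19.4 CPM against 28.1, 32.2 and 33.0 CPM. Pias4, a SUMO ligase, had 19.9, 23.4 and 21.7 CPM against 32.9, 31.0 and 28.5 CPM, a log2 fold change of -0.50.

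Estimates for genes of sensory neurons were more often lower than higher, and most differences were small. Of 30 nociceptor genes 24 had a lower estimate (49.2% of all genes did), 7 of them with an unadjusted p under 0.05 (4.75% of all genes were lower at that p) and 0 higher, and for 6 of 30 every Ctrl_solvent library lay below every Ctrl library (8.24% of all genes). The median log2 fold change was -0.18, and without Ctrl 2 and 3 it was 0.01, with 0 then lower at an unadjusted p under 0.05. The lowest estimate of the list was that of Nppb, a natriuretic peptide of itch-sensing neurons, at -5.30 (DESeq2 adjusted p 0.000918, edgeR adjusted p 0.146). It was -0.41 without Ctrl 2 and 3. Of 25 genes of large-diameter neurons 21 were lower, 5 of them at an unadjusted p under 0.05, with a median of -0.19, and of 18 pan-neuronal genes 14 were lower, with a median of -0.14. Scn10a, the sodium channel Nav1.8 of nociceptors, had 228, 303 and 261 CPM in Ctrl_solvent and 308, 353 and 469 CPM in Ctrl, a log2 fold change of -0.51 ± 0.19 at an edgeR adjusted p of 0.258. Gfra3, the artemin receptor, had 33.0, 45.9 and 36.9 CPM against 47.0, 65.7 and 54.4 CPM. The groups did not overlap for either gene, though Ctrl_solvent 2 came within a few CPM of Ctrl 1 in both. Trpv1, the heat and capsaicin channel, had 70.4, 70.9 and 86.4 CPM against 69.8, 72.8 and 87.1 CPM. Nefh, the heavy neurofilament of large myelinated neurons, had 7766, 9481 and 5825 CPM against 8768, 9481 and 9343 CPM.

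Several genes of the response to nerve injury, namely Atf3, Npy, Gal and Vip, were far higher in Ctrl_solvent 3 than in the other 5 libraries. Atf3, the transcription factor that marks injured sensory neurons, had 15.9, 10.4 and 94.6 CPM in Ctrl_solvent and 9.69, 9.60 and 9.53 CPM in Ctrl, a log2 fold change of 2.07 ± 1.05 at an edgeR adjusted p of 0.435. Npy, a neuropeptide that appears in injured sensory neurons, had 1.89, 1.79 and 196 CPM against 1.18, 1.41 and 0.620 CPM. Its edgeR adjusted p was 0.375 and its DESeq2 adjusted p 0.0328. Gal, the neuropeptide galanin, had 6.44, 8.71 and 32.9 CPM against 11.5, 9.65 and 6.56 CPM, and its log2 fold change was 0.80, or -0.28 without Ctrl_solvent 3. Vip, another neuropeptide of injured neurons, had 0.216, 0.460 and 6.74 CPM against 0.184, 0.194 and 0.261 CPM. Csf1, which injured neurons release to microglia and which other cells make too, had 34.6, 16.2 and 45.8 CPM against 13.6, 14.1 and 14.0 CPM, high in Ctrl_solvent 1 as well. Over 29 tested genes of the list, 21 were higher (50.8% of all genes), with a median of 0.47 (-0.02 without Ctrl_solvent 3). At an unadjusted p under 0.05, 7 were higher and 1 lower (8.29% and 4.75% of all genes). In 7 every Ctrl_solvent library lay above every Ctrl library, and in 2 below (8.35% and 8.24% of all genes). The lowest estimate of the list was that of Reg3b, at -3.16 (3.57 without Ctrl 2 and 3). The list score was 1.04 in Ctrl_solvent 3 and between -0.55 and -0.27 in the other 5, and it ran from -0.58 to 1.19 in the 12 further libraries.

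Glial genes had medians at or a little below 0. The median log2 fold change was 0.00 over 19 satellite glia genes and -0.14 over 18 genes of myelinating Schwann cells. Without Ctrl 2 and 3 these were -0.13 and -0.34, and the Schwann cell median was -0.36 without Ctrl 3 and -0.02 without Ctrl 1. Bcan, the matrix proteoglycan brevican, had 58.1, 103 and 43.2 CPM in Ctrl_solvent and 106, 113 and 119 CPM in Ctrl, a log2 fold change of -0.72 ± 0.23. Here Ctrl_solvent 2 was close to Ctrl and the other Ctrl_solvent libraries were well below. Cholesterol synthesis genes had a median of -0.10 over 23 genes (-0.06 without Ctrl 2 and 3). Of 41 nuclear-encoded genes of the respiratory chain 40 had a lower estimate (49.2% of all genes). At an unadjusted p under 0.05, 0 were lower (4.75% of all genes). In 8 all Ctrl_solvent libraries lay below all Ctrl libraries (8.24% of all genes). The median was -0.16 (-0.20 without Ctrl 2 and 3). Of 69 cytosolic ribosomal protein genes 61 had a higher estimate (50.8% of all genes), with a median of 0.16. At an unadjusted p under 0.05, 1 was higher (8.29% of all genes). Without Ctrl 2 and 3, 44 of 69 were higher, with a median of 0.07.

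With no library left out, lists for responses to handling, drugs or stress had medians within 0.2 of 0, apart from immediate early genes. The median log2 fold change was -0.10 over 20 glucocorticoid-responsive genes, -0.09 over 19 heat shock genes, 0.06 over 19 genes of endoplasmic reticulum stress, -0.03 over 18 hypoxia genes, 0.03 over 18 targets of NRF2 and AhR, and 0.19 over 20 clock genes. Without Ctrl 2 and 3 the glucocorticoid-responsive median was -0.44, and only 3 of 20 members had a higher estimate. In that fit the medians of endoplasmic reticulum stress and of NRF2 and AhR targets were 0.13 each. Of the 19 heat shock genes 4 were lower at an unadjusted p under 0.05 (4.75% of all genes). The heat shock median without Ctrl 2 and 3 was -0.08. Fkbp5, a glucocorticoid-induced co-chaperone, had 37.6, 31.9 and 41.1 CPM in Ctrl_solvent and 47.8, 27.8 and 34.0 CPM in Ctrl, with overlapping groups and a log2 fold change of 0.01. Of 32 immediate early genes 26 were higher (50.8% of all genes), with a median of 0.24 (0.03 without Ctrl 2 and 3). At an unadjusted p under 0.05, 5 were higher and 1 lower (8.29% and 4.75% of all genes). Fos, an activity-induced transcription factor, had 10.7, 2.73 and 19.2 CPM against 5.71, 2.13 and 3.17 CPM, at an edgeR adjusted p of 0.306. All 25 cell cycle genes had a higher estimate, 7 at an unadjusted p under 0.05 (8.29% of all genes). Their median was 0.66 (1.12 without Ctrl 2 and 3).

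Markers of blood and of neighbouring tissue followed other patterns than the immune lists. Neutrophil genes summed to 177, 83.4 and 59.0 CPM in Ctrl_solvent and 93.3, 429 and 58.9 CPM in Ctrl, with Ctrl 2 the highest, and 2 of 15 tested members had a higher estimate, with a median log2 fold change of -1.04. Without Ctrl 2 that median was 0.54, and without Ctrl 2 and 3 it was 0.16, with 13 of 15 members higher. The red blood cell median was -0.29 (-2.27 without Ctrl_solvent 2 and 1.02 without Ctrl 2 and 3). Red blood cell genes summed to 225, 967 and 193 CPM against 314, 968 and 277 CPM, so Ctrl_solvent 2 and Ctrl 2 stood apart from the other 4. Hba-a1, an alpha globin with near-identical copies, had 4.82, 301 and 1.40 CPM against 45.5, 310 and 50.5 CPM. Ctrl_solvent 1 and 3, in which the immune genes were high, had the least hemoglobin RNA of the 18 libraries (0.00123% and 0.000455% of reads), and the 12 further libraries held 0.0021% to 0.0815%. The part of residual blood in the immune result was not tested. Median log2 fold changes were 0.12 over 23 fibroblast genes, 0.34 over 19 genes of the meninges (0.58 without Ctrl 1), -0.02 over 20 endothelial, 0.06 over 16 mural and -0.16 over 16 skeletal muscle genes, and 0.64 over 10 genes of central glia (-0.29 without Ctrl 2 and 3). Ribosomal RNA took 0.155%, 0.119% and 0.13% of reads in Ctrl_solvent and 0.273%, 0.222% and 0.322% in Ctrl, which did not overlap (exact permutation test, two-sided, p = 0.1, the smallest p that 3 against 3 allows).

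Hox genes of the posterior groups, which mark position along the spinal axis in sensory ganglia, also differed between libraries, in lists put together after values had been seen. Hoxd10 had 9.25, 3.90 and 12.2 CPM in Ctrl_solvent and 3.94, 2.96 and 1.83 CPM in Ctrl, a log2 fold change of 1.53 ± 0.34 at an edgeR adjusted p of 0.122. The 4 lowest of 18 libraries for Hoxd10 were Ctrl 1, 2 and 3 and Ctrl_solvent 2, all at or under 3.94 CPM, and the other 14 had 6.36 to 16.6 CPM. Hoxd11 had 4.76, 1.24 and 6.999 CPM against 2.91, 0.728 and 0.620 CPM, and Ctrl_solvent 2 lay within the Ctrl range. Hoxc10 had 14.3, 10.9 and 15.2 CPM against 12.3, 12.3 and 10.8 CPM, with smaller differences. Over 26 genes of groups 1 to 9 the median log2 fold change was -0.04, and over 5 tested genes of group 10 and up it was 1.58 (0.55 without Ctrl 2 and 3). Ctrl_solvent 1 and 3, the libraries with high immune genes, thus also had more posterior Hox RNA than Ctrl and Ctrl_solvent 2. Summed levels of groups 10 and 11 were 38.3, 17.6 and 43.8 CPM in Ctrl_solvent and 23.8, 17.2 and 13.6 CPM in Ctrl. Outside these groups, Sham_solvent 2 had a sum of 22.8 CPM, below Ctrl 1. Its Hoxc11 level, 0.295 CPM, was below all Ctrl libraries. Its levels of Hoxd10, Hoxd11, Hoxc10 and Hoxa11 were 6.36, 3.14, 12.6 and 0.354 CPM, each above all Ctrl libraries. The interferon-stimulated score of Sham_solvent 2, 1.49, was the highest of the 12 further libraries. The part of ganglion level in the immune result was not tested.

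**Figure D4:**
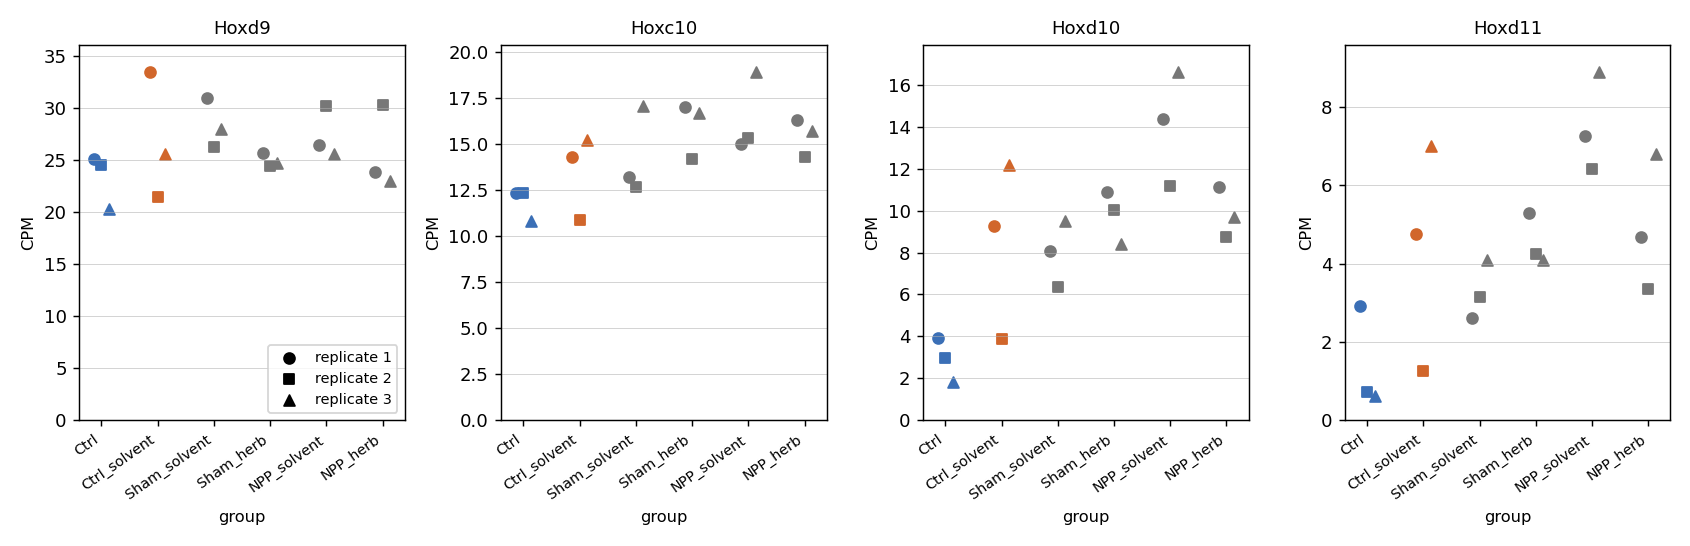
CPM of Hoxd9, Hoxc10, Hoxd10 and Hoxd11 in all 18 libraries by group, with the marker shape giving the replicate. For Hoxd10 the 3 Ctrl libraries and Ctrl_solvent 2 lie at or under 3.94 CPM and the other 14 at 6.36 CPM or more.

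Set beside all libraries of the series, Ctrl_solvent 1 and 3 had the highest scores of the interferon-stimulated, T and B cell and complement lists. The interferon-stimulated score was 2.37, -1.11 and 2.05 in Ctrl_solvent, -1.13, -1.16 and -1.32 in Ctrl and -0.98 to 1.49 in the 12 further libraries. The T and B cell score was 2.32, 0.17 and 2.40, then -0.51, -0.06 and -1.02, and -0.57 to 0.69 in the further 12. The complement score was 1.32, -0.12 and 1.44, then -0.67, -0.30 and -1.01, and -0.45 to 0.50. Ctrl_solvent 2 was within the range of the further 12 for the T and B cell and complement scores and below it for the interferon-stimulated score. Sham_solvent, the sham group given the same treatment label, shares its Ctrl_solvent and Ctrl reference libraries with the main comparison, so the values below are side by side only. Isg15 had 21.3, 86.9 and 9.39 CPM, Cxcl9 0.691, 2.67 and 0.675 CPM, and A2m 38.9, 38.1 and 39.8 CPM in Sham_solvent 1, 2 and 3. The median log2 fold change of the interferon-stimulated list was 1.84 for Sham_solvent over Ctrl and 2.76 for Ctrl_solvent over Ctrl. For the T and B cell list these medians were 0.08 and 2.61, and for the interferon-gamma-linked list 0.73 and 3.03.

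**Figure D5:**
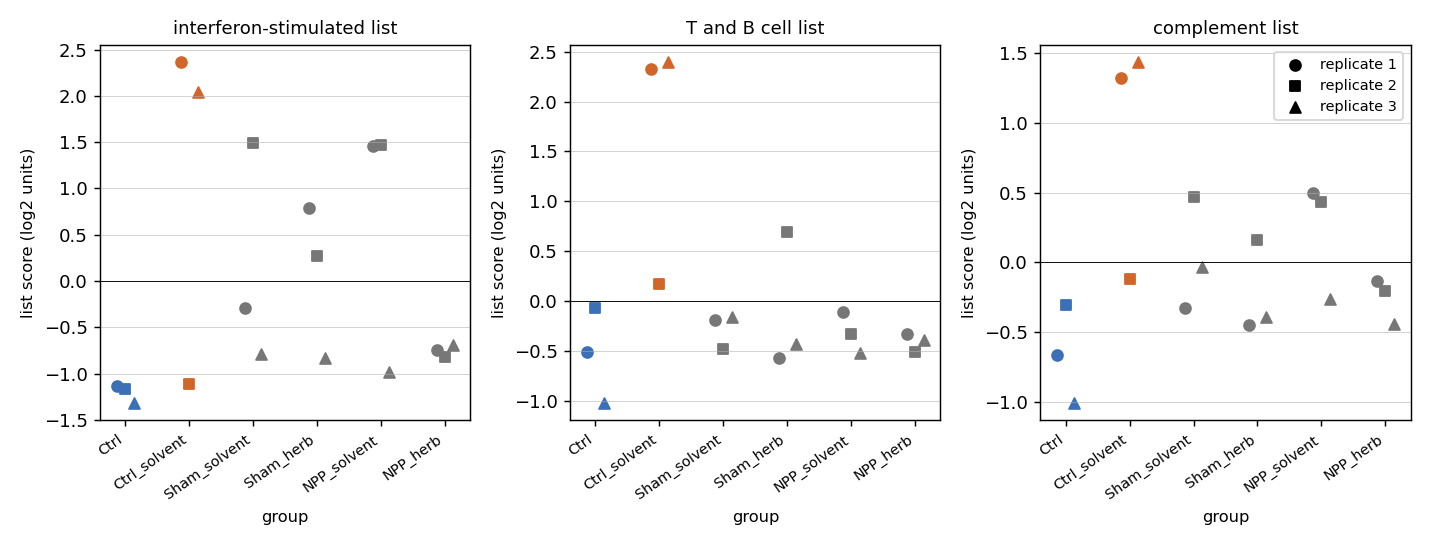
List scores in log2 units for the interferon-stimulated, T and B cell and complement lists in each of the 18 libraries by group, with the marker shape giving the replicate. Ctrl_solvent 1 and 3 are the highest points in all 3 panels, and Ctrl_solvent 2 is apart from them in each.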

How the data were processed

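Total RNA of dorsal root ganglia was extracted with TRIZOL, treated with DNase and captured on mRNA beads, and stranded libraries were sequenced paired-end on an Illumina NovaSeq, per the labels' protocols. The submitters' processing notes name HISAT2, DESeq2 and the mRatBN7.2 genome; which program counted reads, whether it used strand and which annotation it used is not given in the sources used here. Both tables come from the authors, who deposited raw counts per gene and FPKM. Counts of overlapping and antisense genes could be mixed where strand was not used. Groups came from the labels. Counts of all 18 libraries were fitted together in edgeR 4.0.16 (R 4.3.3) with filterByExpr, TMM factors (0.946 to 1.04) and the quasi-likelihood test, with 12 residual degrees of freedom for the design. Benjamini-Hochberg adjustment covered all 17043 genes that passed the filter, at a threshold of 0.05, and results are given for the 16438 on the 20 autosomes. The filter removed at most 0.0495% of a library's reads. A fold change is log2 of Ctrl_solvent over Ctrl with its standard error. CPM are counts-per-million after TMM scaling. Alternatives used DESeq2 1.42.0, limma 3.58.1 (voom, and log2 of the deposited FPKM plus 0.1 or 1 for genes with a mean of at least 0.5), other scalings, filters and covariates, and each library left out. Genes named by rule were the 12 per direction with the smallest p among autosomal genes with non-overlapping groups and a mean of at least 1 CPM, since none passed the adjusted threshold, with a set of fixed genes and members of each list. A few of these are not reported here. The members and the 32 gene lists were chosen with earlier results of these data known, and 5 further lists and the fit without Ctrl 2 and 3 were chosen after seeing the values of these libraries. The fitting script was tested on simulated data. Promoters came from a RefSeq table (GRCr8) matched by symbol, with 33469 starts; genes with several starts were left out of motif counts. Python 3.11.15, pandas 2.3.3, SciPy 1.17.1 and matplotlib 3.10.9 made the summaries and figures. Within Ctrl and within Ctrl_solvent, no 2 libraries agreed within sampling noise (chi-square per degree of freedom of at least 17.5).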

Additional observations from a re-analysis of the deposited data

How the results depend on the processing

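The count of 0 genes at an adjusted p of 0.05 became 396 higher and 62 lower with DESeq2, 2 higher with no scaling factor, and 1 higher with no low-count filter or with a covariate for the gene length slope. With 1 library left out it ran from 0 to 561 higher and from 0 to 135 lower. The highest values were those without Ctrl_solvent 2; without Ctrl 1 they were 10 and 5, without Ctrl 2 they were 2 and 0, and without each of the other 3 libraries 0. At an unadjusted p under 0.05, 1363 higher became 638 with Y-linked RNA as a covariate, 627 without Ctrl 2 and 3, and 803 to 1733 with 1 library left out. The 781 lower became 255, 258 and 382 to 1354 in the same fits, 1358 with the length slope and 511 on FPKM with pseudocount 0.1. The cause was not tested. With the replicate block, 0 genes were called, the smallest adjusted p was 0.137, and 1314 and 753 genes had an unadjusted p under 0.05. Same-numbered libraries of Ctrl and Ctrl_solvent had correlations of deviations of -0.0020, -0.0769 and 0.0078, and differently numbered ones -0.138 to 0.132. With 3 libraries a group these values cannot settle whether libraries were paired, and the labels do not say. Of the named genes' values, 832 kept their direction and side of the threshold and 59 newly passed it. Another 44 turned sign, all in 11 genes called under none of those settings. With Y-linked RNA as a covariate and without Ctrl 2 and 3, in that order, these were Dbp 0.52 and 0.51, Fkbp5 -0.38 and -0.38, Hba-a1 1.18 and 1.18, Hspa1b -0.10 and -0.10, Reg3b 3.56 and 3.57, S100a8 0.077 and 0.073, and Trpv1 0.12 and 0.12. With no scaling factor Dnajb1 was 0.041 and Trpv1 0.033. With the length slope Dnajb1 was 0.0016, and Fabp7 was -0.15 with voom. On FPKM with pseudocounts 0.1 and 1, Dnajb1 was 0.036 and 0.035, Fabp7 -0.042 and -0.038, and Trpv1 0.027 and 0.026. With 1 library left out the ranges were -1.05 to 0.22 for Dbp, -0.033 to 0.035 for Dnajb1, -0.33 to 0.54 for Fabp7, -0.15 to 0.25 for Fkbp5, -0.28 to 1.17 for Gal, -5.48 to 1.10 for Hba-a1, -1.65 to 0.48 for S100a8, -0.30 to 0.11 for Sgk1 and -0.12 to 0.090 for Trpv1. Of the list medians 692 moved little and 48 moved more than the spread, among them T and B cell to 1.34 and cytotoxic lymphocyte to 2.40 with a filter at 1 CPM. With 3 libraries a group, 1 of them apart from the rest, the size of a fold change is poorly fixed, and low-level lymphocyte genes rest on few reads.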

Other observations

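A few genes were high in Ctrl 2 and Ctrl 3 and low in Ctrl 1 and in all 3 Ctrl_solvent libraries. Nppb, a natriuretic peptide of itch-sensing neurons, had 1.22, 47.1 and 59.8 CPM in Ctrl 1, 2 and 3 and 0.866, 0.731 and 1.18 CPM in Ctrl_solvent. Its log2 fold change was -5.30 ± 1.40 at an edgeR adjusted p of 0.146 (0.000918 in DESeq2), and -0.41 without Ctrl 2 and 3. Reg3b, a secreted lectin, had 0.516, 67.1 and 97.1 CPM in Ctrl and 4.06, 0.758 and 13.8 CPM in Ctrl_solvent. Nqo2, a quinone reductase, had 3.39, 12.7 and 18.8 CPM in Ctrl and 2.87, 3.004 and 3.24 CPM in Ctrl_solvent. Osmr, a receptor subunit for oncostatin M and interleukin 31, had 12.0, 57.5 and 87.0 CPM in Ctrl and 17.96, 11.7 and 25.6 CPM in Ctrl_solvent, while Sst, the somatostatin gene of the same neuron class, had 81.0, 20.4 and 20.5 CPM in Ctrl and 46.0, 59.3 and 40.4 CPM in Ctrl_solvent. NPP_solvent 3 had 22.2 CPM of Nppb, 36.6 of Reg3b, 15.5 of Nqo2, 64.4 of Osmr and 20.2 of Sst. The cause of this pattern was not tested, and the presence of Y-linked RNA is partly confounded with treatment.

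Some genes were low in Ctrl_solvent 1 and 3 and nearer to the Ctrl level in Ctrl_solvent 2. They were taken from the 135 genes lower without Ctrl_solvent 2, after values had been seen. Rab11fip5, an effector of recycling endosomes, had 45.3, 111 and 43.6 CPM in Ctrl_solvent and 106, 110 and 115 CPM in Ctrl. Slc13a3, a dicarboxylate transporter, had 17.2, 35.3 and 16.4 CPM against 35.1, 36.3 and 33.9 CPM. Hcn2, a pacemaker channel of sensory neurons, had 84.8, 113 and 77.3 CPM against 133, 124 and 126 CPM.

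Hemoglobin RNA and interferon-stimulated genes were set side by side over the 18 libraries. The 7 libraries with an interferon-stimulated score above 0 were all among the 8 with the lowest hemoglobin share, at most 0.00678% of reads. Neither cut-off was fixed with the design, so this overlap is a description and was not tested.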
